A study of Drosophila melanogaster with 3 samples.

Results

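The regions described here are 3958 weak ChIP-seq peaks whose summits lie inside coding exons of the fly genome. They were taken from the authors' list of peaks called on the pooled alignments of 3 replicates (dm6 build), which holds 28940 peaks. A pooled peak counted as weaker when it overlapped no peak of the authors' IDR-thresholded list by 1 bp or more, where IDR is a measure of how well peak ranks repeat between replicates. Of 25669 weaker peaks, 15.4% had a summit in coding sequence (CDS), outside every annotated 5' UTR and more than 500 bp from any annotated start of protein-coding transcription (TSS). These 3958 peaks are called coding-exon peaks below. They were chosen by their position and by their absence from the IDR list, so their low signal is a property of the choice. In the IDR list, only 5 of 2780 peaks (0.180%) met the same rule of position. The other weaker peaks used for comparison are 14034 in introns or between genes and 6271 at promoters (within 500 bp of a TSS).

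The samples form 1 group of 3 biological replicates, each with 1 technical replicate, of whole Drosophila melanogaster embryos aged 0 to 24 h, with males and females pooled. The strain is named ets3-GFP and is a transgenic line with a stable insertion that expresses Ets65A with GFP at its C-terminus. Chromatin was sonicated (fragments of 200 to 800 bp) and precipitated with an antibody against GFP, although the antibody field of the labels names Ets65A. Embryos of all stages and tissues are mixed, untagged embryos were not analysed here, and the read depth behind each list is unknown.

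Ets65A belongs to the ETS family of transcription factors, which bind DNA through a winged helix-turn-helix domain that recognises a GGAA core. ETS factors in flies act in growth factor signalling, the ecdysone response and the differentiation of neurons and other tissues. Most binding by sequence-specific factors is described at promoters, introns and intergenic enhancers. Coding exons of flies are richer in G and C than the introns beside them, and sonication, amplification and sequencing can all treat GC-rich fragments differently.

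The sequences below show what lies under the summits of 8 of the strongest coding-exon peaks found in all 3 replicate lists. Each run holds 29 bases centred on the summit, 5′ to 3′ on the coding strand of the host gene, and capitals mark runs of at least 4 G or C bases. Sequence was read from the RefSeq copy of the dm6 genome.
CG1986, chrX:9909565-9909593, minus strand: GGGGtGGGGCGaatgtcgtcgagcaaggt
scyl, chr3L:11252884-11252912, plus strand: aaaaccgatgaaaatggatgttattgctc
ttk, chr3R:31727917-31727945, plus strand: tgcaGCGCatccaaccgtatttggtGCCC
CG32365, chr3L:7893958-7893986, plus strand: gggaaatcaaatGCGGaactcatctttct
CG7974, chr3L:1665726-1665754, plus strand: GCGGCacggaggacgcagcagaggacgac
ND-ACP, chr3L:1330895-1330923, plus strand: caccatcgaggacatcaagttCCGCGtgc
scrib, chr3R:26566977-26567005, plus strand: tcaccaacagcagccacacccagtgcagc
noc, chr2L:14493013-14493041, plus strand: caccaccaGGCGCCttggctggaggacct
Of these 8 runs, scyl and scrib hold no stretch of 4 G or C bases. The next 3 runs come from 3 of the strongest coding-exon peaks with a CAG triplet repeat within 100 bp of the summit, and there capitals mark the repeat units (CAG, or CTG where the repeat runs on the other strand).
CG17202, chr3R:12423262-12423290, plus strand: ggcggcggagCAGCAGCAGCAGCAGCAGc
InR, chr3R:21580242-21580270, minus strand: gcagtagcaaCAGCAGCAGctgtcaagca
Not10, chr3R:12631235-12631263, plus strand: acagctacagCTGCTGCTGgccaccaatc
Within 100 bp of the summit, GC content was 67.2% at CG1986 and at ttk, 65.7% at noc and 61.2% at CG7974. It was 55.7% at CG32365, 49.8% at scrib, 48.3% at ND-ACP and 42.8% at scyl. The strongest coding-exon peaks were therefore not all GC-rich.

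The signal value is the authors' score for a peak, on a scale that is not stated, and it can be compared within 1 list only. Among coding-exon peaks it ran from 18.1 to 61.9 with a median of 22.6, and the middle 50% lay between 20.1 and 26.5. The medians were 24.3 for weaker peaks in introns or between genes and 29.4 at promoters, and the lowest signal of any IDR peak was 71.8. Coding-exon peaks thus sat at the low end of a list that was already cut from above, with 72.3% of them below the middle rank of the pooled list and none ranked better than 3491. Signal values of 40 or more were given to 66 coding-exon peaks (1.67%), against 12.6% of weaker intron and intergenic peaks and 26.9% of weaker promoter peaks. The peaks did not differ in width, since each of the 3958 was 390 bp wide. No test is given for these differences because absence from the IDR list is a choice by signal.

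**Figure D1:**
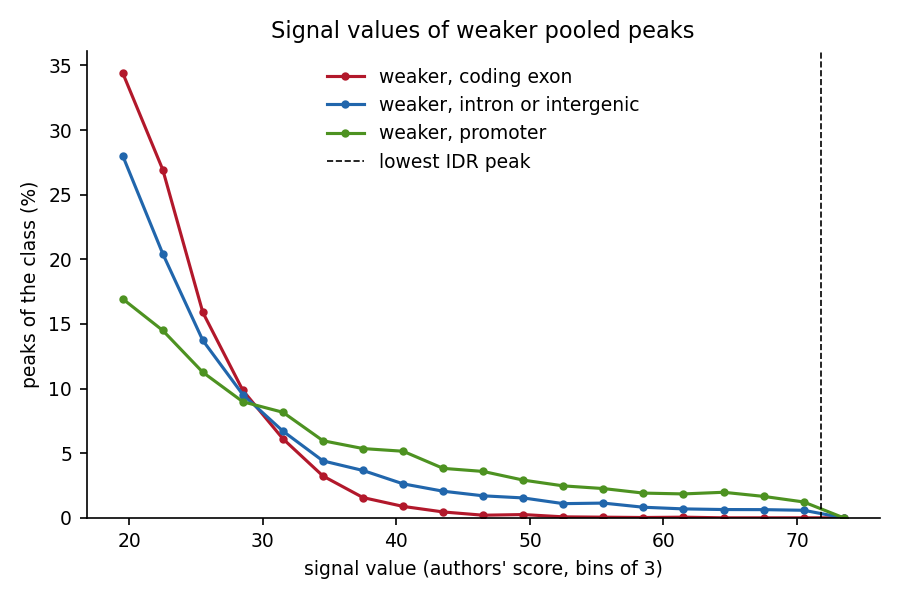
Share of the peaks of each class (y axis, percent) by the authors' signal value (x axis, bins of 3 units) for weaker peaks in coding exons (n = 3958), in introns or between genes (n = 14034) and at promoters (n = 6271). The dashed line marks the lowest signal of an IDR peak, 71.8; the coding-exon curve is the highest at the left edge and falls fastest, with a median of 22.6.

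The q-values were likewise weak. The deposited −log10 q of coding-exon peaks ran from 0.0178 to 3.39 with a median of 0.138, which is a q of 0.727, and 2967 of the peaks (74.96%) had a q above 0.5. A −log10 q of at least 2 was reached by 19 coding-exon peaks (0.480%), against a background of 8.62% of all weaker peaks, 7.45% of intron and intergenic ones and 17.1% of promoter ones. A value of at least 1 was reached by 116 (2.93%). By the deposited q-value, most of these intervals were thus weak as single calls.

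The strongest coding-exon peak lay in fus (fusilli), which encodes an RNA-binding protein of epithelial splicing, with a pooled signal of 61.9. Its overlapping peaks had signals of 14.2, 18.7 and 19.3 in replicates 1, 2 and 3, on each list's own scale, where the list medians were 10.77, 10.77 and 11. The peak in CG1986 (pooled 59.1) lay in the last of 4 coding exons, 1547 bp from a TSS, with 18.9, 24.4 and 18.3 in the replicates. Both were above the list median in every replicate.

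The gene scyl (scylla), which encodes an inhibitor of TOR signalling induced by hypoxia, held 2 of the 12 strongest peaks found in all 3 lists. The first, at 56.3, was 591 bp from a TSS and only 555 bp from an IDR summit, and the other, at 49.3, lay in the last coding exon. The peak of ttk (tramtrack, a BTB zinc-finger repressor) had a pooled signal of 54.6 and replicate signals of 13.9, 22.9 and 19.4. That of CG32365 (pooled 53.6) was 24.2, 15.7 and 8.85, and that of CG7974 (53.4) was 20.4, 13.9 and 22.5. All of these were above the list median except that of CG32365 in replicate 3. The remaining peaks of the 12 lay in ND-ACP, the mitochondrial acyl carrier protein of complex I (51.3), in KCNQ, a voltage-gated potassium channel (50.9), in scrib, a scaffold of epithelial polarity (50.5), in noc, a zinc-finger regulator (49.97), and in dap, the inhibitor of cyclin-dependent kinases named dacapo (49.8). At ND-ACP the signal of replicate 1 was 8.16, under its list's median, while replicates 2 and 3 gave 23.5 and 23.0. At dap replicates 1 and 3 gave 9.99 and 8.54, also under their lists' medians, while replicate 2 gave 19.7. A peak in mod(mdg4), a trans-spliced BTB gene of chromatin insulators, had a higher pooled signal (60.3) than all but fus, but it was not in the list of replicate 1.

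The 5 IDR peaks in coding exons lay in Obsc (signal 74.8), CG10357 (154), klar (164), otp (470) and l(3)mbn (483). At the limit of 500 bp from a TSS, the nearest coding-exon peaks inside the rule were in CLS and CG17325 (501 bp), Syx13 (502 bp), CG14109 and Duba (503 bp), with signals from 18.3 to 36.6. The nearest outside it were in ArfGAP3 and gudu (500 bp), Surf6 (499 bp), Fbp2 and CG12104 (498 bp), with signals from 18.9 to 26.5. The limit cuts through a continuous set, since 238 members lay up to 100 bp past it and 211 weaker coding summits up to 100 bp short of it.

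Each replicate had its own list of 30000 peaks, and a pooled peak was counted as found when a peak of that list overlapped it by at least 1 bp. Replicate 1 held 57.2% of the coding-exon peaks (2262; 95% Wilson interval 55.6 to 58.7), replicate 2 held 51.1% (2021; 49.5 to 52.6) and replicate 3 held 45.05% (1783; 43.5 to 46.6), a mean of 51.1% ± 6.05 (SD, n = 3). Of 93461 positions spaced along the coding sequence open to the rule, given the same width as the peaks, the same lists overlapped 18.7%, 14.3% and 12.5%. Coding-exon peaks were above these positions in 3 of 3 replicates, by 38.5, 36.8 and 32.6 percentage points (mean 35.9 ± 3.04 SD). The pooled list was made from the same alignments as the replicate lists. A higher share in every replicate is therefore built in, and these differences are a description only.

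Compared with other weaker peaks, the coding-exon peaks were found more often in replicate 1 and less often in replicates 2 and 3. Weaker intron and intergenic peaks were found at 52.1%, 63.3% and 60.04% in replicates 1, 2 and 3, and weaker promoter peaks at 47.8%, 78.6% and 80.9%. The coding-exon share was thus 5.07 points above the intron and intergenic share in replicate 1, and differed from it by −12.2 points in replicate 2 and −14.99 points in replicate 3. The mean difference of −7.39 points ± 10.9 (SD, n = 3) was smaller than the spread between replicates (exact sign-flip test, two-sided, p = 0.5). Against promoter peaks the differences were 9.37, −27.6 and −35.9 points, a mean of −18.0 ± 24.1 (SD, n = 3; exact p = 0.5). Neither mean difference can be told from 0 with these samples, and replicate 1 alone had the opposite sign. The classes were not matched for pooled signal, which was lowest for coding-exon peaks.

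**Figure D2:**
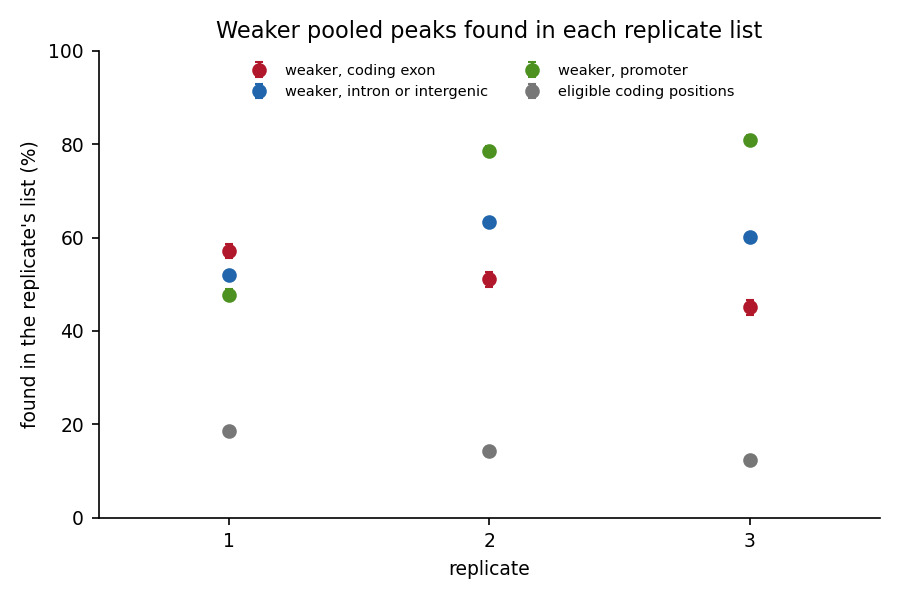
Share of weaker pooled peaks found in each replicate's list (y axis, percent; x axis, replicate) for coding-exon, intron or intergenic and promoter peaks and for eligible coding positions; bars are 95% Wilson intervals over peaks or positions, most of them smaller than the point. Coding-exon peaks stand above both other classes in replicate 1 (57.2%) and below both in replicates 2 (51.1%) and 3 (45.05%), and every class lies above the coding positions.

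All 3 lists held 402 coding-exon peaks (10.2%), against a background of 20.7% of all weaker peaks, 19.5% of intron and intergenic ones and 30.7% of promoter ones. These classes were not matched for pooled signal (medians 22.6, 24.3 and 29.4 for coding-exon, intron and intergenic, and promoter peaks). Among coding-exon peaks the share in all 3 lists rose with signal. Whether the lower share of coding-exon peaks goes with their signal or with their position was not tested. A further 243 (6.14%) were in no list, and 808 (20.4%) were in that of replicate 1 alone, compared with 12.6% of intron and intergenic and 4.40% of promoter peaks. Replicates 2 and 3 without replicate 1 held 495 coding-exon peaks (12.5%), compared with 21.4% of intron and intergenic peaks and 35.1% of promoter peaks. Any pair of lists shared a similar part of the coding-exon peaks, 25.6% for replicates 1 and 2, 21.2% for 1 and 3, and 22.7% for 2 and 3. Over all weaker peaks, replicates 2 and 3 shared 44.2%, more than the other pairs (31.2% and 29.2%). These shared parts depend on how many peaks each list holds of a class, and no test of closeness was made.

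Peaks found in all 3 lists were stronger than those in none, with median signals of 29.8 and 19.9. Split by pooled signal into 4 groups of nearly equal size, from weakest to strongest, the share found in all 3 lists was 2.12%, 2.43%, 7.99% and 28.1%. The share found in replicate 1 went from 46.1% to 71.9% between the weakest and the strongest group, that in replicate 2 from 36.0% to 73.3%, and that in replicate 3 from 32.0% to 64.6%. Pooled signal and presence in the lists come from the same reads, so this is a description. In the replicates' own rankings the overlapping peaks had median ranks of 13106, 16951 and 18088.5 in replicates 1, 2 and 3, and 56.3%, 42.0% and 36.9% of them were among the 15000 strongest of their list.

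The replicates' own lists, classified in the same way without the pooled list, also differed. Coding exons held 20.6% of the weaker peaks of the list in replicate 1 (5562 of the 27035 that overlapped no IDR peak), 15.2% in replicate 2 (4067 of 26687) and 12.5% in replicate 3 (3331 of 26574), a mean of 16.1% ± 4.09 (SD, n = 3). Among the weaker peaks within the 15000 strongest of each list, these shares were 20.1%, 10.7% and 7.82%. In replicate 1 the coding share hardly depended on rank, while in replicates 2 and 3 it was lower among strong peaks. The part that replicate 1 plays in the pooled coding-exon peaks cannot be told apart from that of its depth, which is unknown.

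The coding-exon peaks were GC-rich even for coding sequence. Within 100 bp of the summit the median GC content was 56.2% (middle 50% from 51.7% to 60.2%), compared with 52.2% at eligible coding positions, 41.8% at weaker intron and intergenic summits, 42.8% at weaker promoter summits and 37.3% at IDR summits. A GC content of 60% or more was reached by 27.5% of coding-exon summits and by 11.5% of coding positions. The most GC-rich window held 75.1% and the poorest 31.8%. Since summits in coding exons were chosen by position, the comparison that bears on them is the one with other coding positions.

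The replicates' own coding-exon peaks, which the pooled list did not choose but which come from the same alignments, were alike in this. Their median GC contents were 55.2%, 55.2% and 54.2% in replicates 1, 2 and 3, which exceeded the coding positions by 2.99, 2.99 and 1.99 points (mean 2.65 ± 0.574 SD, higher in 3 of 3). They exceeded their own flanks, 500 bp to each side, by 8.21, 8.96 and 7.96 points (mean 8.37 ± 0.518 SD, higher in 3 of 3). The rule puts the summit but not the flanks in CDS, so part of the flank difference is built in. At eligible coding positions, mean GC content also fell, from 52.6% to 47.1% and 47.2% at 500 bp to each side (windows of 50 bp to each side). The differences of the peaks from coding positions and from flanks were both larger than the spread between replicates. The exact sign-flip p was 0.25 for each, the smallest that 3 pairs allow.

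**Figure D3:**
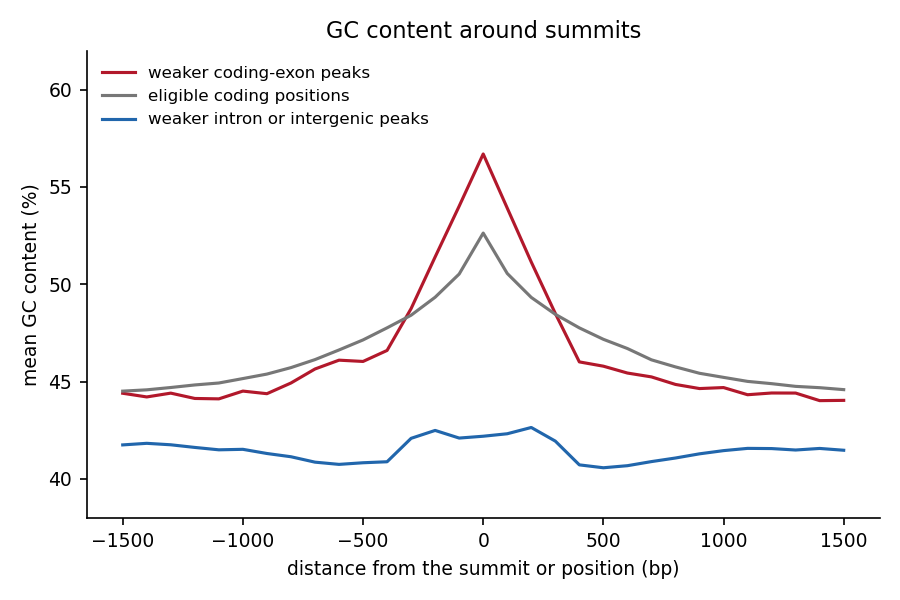
Mean GC content (y axis, percent; windows of 50 bp to each side) by distance from the summit or position (x axis, bp) for coding-exon peaks, eligible coding positions and weaker intron or intergenic peaks. The coding-exon curve peaks at 56.7% at the summit, above the 52.6% of coding positions, and by 400 bp it lies below them (46.0% against 47.8%); the intron and intergenic curve stays between 40.6% and 42.6%.

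GC content was higher at the summit than in the flanks for 3343 coding-exon peaks (84.5%), with a median difference of 9.20 points. Much of this contrast went with leaving the exon. Among the 1156 peaks with both flank centres still in CDS, the medians were 54.7% at the centre and 52.7% in the flanks, with a median difference of 1.74 points and a higher centre in 61.6%. Eligible coding positions with both flanks in CDS had a difference of 0.249 points and a higher centre in 50.6%. For the other 2802 peaks the medians were 57.2% and 43.5%. At 400 bp to the right of the summit on the reference strand, only 56.8% of coding-exon peaks were still in CDS, compared with 69.3% of coding positions, so the peaks lay in shorter stretches of coding sequence.

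The density of coding-exon peaks rose with GC content. It was 42.1 peaks per Mb of eligible coding sequence where GC was below 35% (only 15 peaks), 85.3 at 35 to 40%, 109 at 40 to 45%, 121 at 45 to 50%, 171 at 50 to 55%, 275 at 55 to 60%, 460 at 60 to 65% and 737 at 65% and above. Without the thinly filled first class it still rose from 85.3 to 737. The overall density was 212 per Mb over 18.7 Mb. The replicate lists covered coding positions in the same order, from 6.40% to 32.7% in replicate 1, from 6.46% to 24.7% in replicate 2 and from 7.75% to 18.4% in replicate 3. They come from the same alignments as the pooled list, so they are not independent of it. The rise was steepest in replicate 1 and shallowest in replicate 3.

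**Figure D4:**
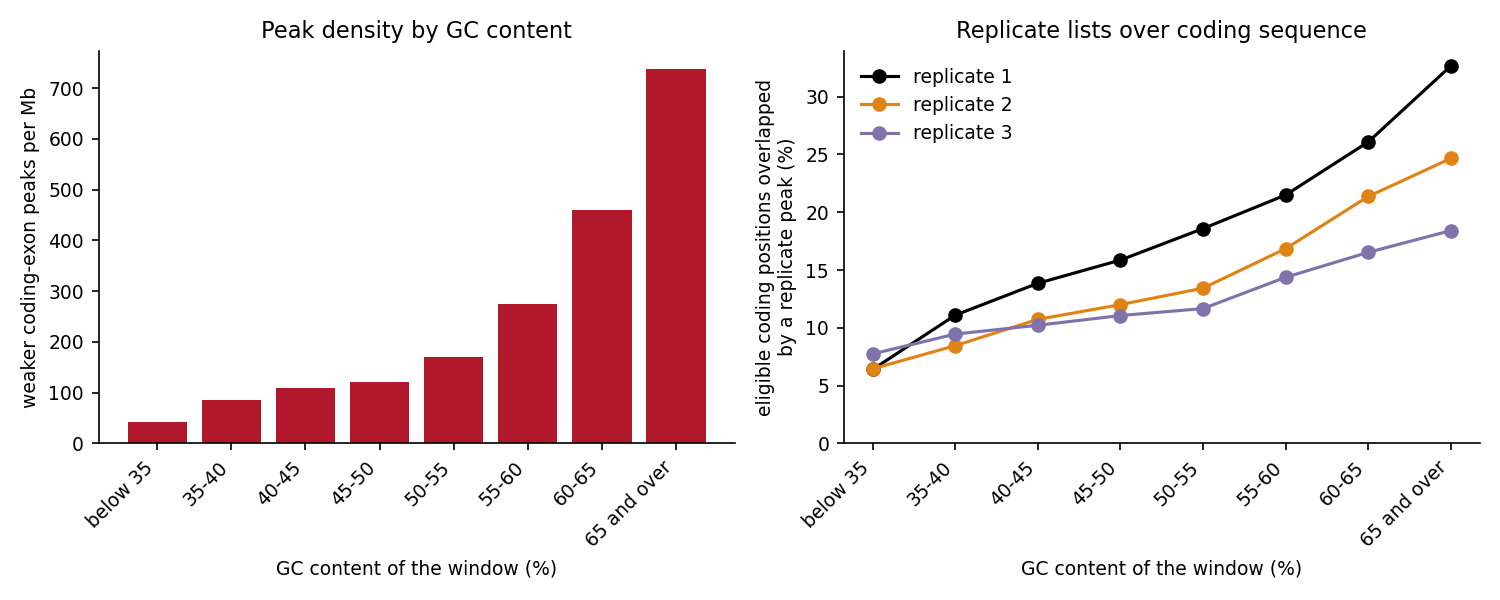
Left, coding-exon peaks per Mb of eligible coding sequence (y axis) by GC content within 100 bp (x axis, classes of 5 percentage points); bars rise from 42.1 to 737 per Mb. Right, share of eligible coding positions overlapped by a peak of each replicate's own list (y axis, percent) over the same classes, which rises in all 3 replicates and furthest in replicate 1, to 32.7%.

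GC content was also tied to which replicate held a coding-exon peak. Between the poorest and the richest of 4 groups by GC content, the share found in replicate 1 went from 52.9% to 62.4%, that in replicate 2 from 49.9% to 51.7% and that in replicate 3 from 47.8% to 43.2%. The share found in all 3 lists was 8.78% in the poorest group and 11.7% in the richest, and the median signal differed little (22.2 and 22.8). Whether the GC-dependence of the libraries accounts for these peaks was not tested.

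The 11 motifs searched are short sequences looked for within 100 bp of the summit on both strands, and a match describes letters, not a bound site. The ETS-type sequence CCGGAA was in 13.4% of coding-exon windows (95% Wilson interval 12.4 to 14.5), in 11.1% of eligible coding windows of the same length, in 5.94% of intron and intergenic windows and in 7.57% of promoter windows. Among windows with a GC content between 51.7% and 60.2% it was in 14.3% of peaks and 12.6% of coding positions. The variant CAGGAA was in 13.2% of peaks and 13.9% of coding positions. The share with CCGGAA was thus above that of coding positions by a few points at most, and the share with CAGGAA was not above it.

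Motifs that mark fly promoters were scarce. TATCGATA, recognised by DREF, was in 9 coding-exon windows (0.227%) and 0.164% of coding positions, but in 5.80% of weaker promoter windows. Between 51.7% and 60.2% GC it was in 0.348% of peaks and 0.110% of coding positions, which rests on 9 peaks at most. GGTCACAC, part of the core promoter element bound by M1BP, was in 0.328% of coding-exon windows, 0.346% of coding positions and 5.49% of promoter windows. GAGAGA, bound by the factor Trl, was in 4.40%, 4.85% and 10.2% of these windows, and CAGGTAG, a Zelda site, was in 1.92%, 1.89% and 1.13%. The E-box CAGGTG was in 17.7% of coding-exon windows and 15.5% of coding positions, and for the E-box CAGCTG these shares were 17.3% and 14.4%. Within the same range of GC content as above, neither E-box was clearly more frequent in the peaks, with CAGGTG in 16.6% of peaks and 18.04% of coding positions and CAGCTG in 17.2% and 17.1%. TATAAA was in 4.40% of coding-exon windows and 6.86% of coding positions, and CACACACA was in 0.581% and 0.592%. Within that range TATAAA was in 2.04% of peaks and 2.13% of coding positions.

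The triplet repeat CAGCAGCAG was in 340 coding-exon windows (8.59%; 95% Wilson interval 7.76 to 9.50), in 4.93% of coding positions, in 1.80% of intron and intergenic windows and in 1.71% of promoter windows. Within the same range of GC content the shares were 7.41% of peaks and 6.07% of coding positions. On the coding strand of the host, 305 of these windows read CAG, a codon for glutamine in one of its frames, and 39 read CTG, with a few holding both. They lay in 304 genes and had a median GC content of 60.2%. Replicates 1, 2 and 3 held 62.1%, 48.2% and 38.2% of them, compared with 56.7%, 51.3% and 45.7% of the coding-exon peaks without the repeat.

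Among the peaks with the repeat whose sequences are printed above, CG17202 had a pooled signal of 43.2 and replicate signals of 10.3, 7.48 and 20.2. InR, the insulin-like receptor, had 42.6, was missing from replicate 1 and had 14.2 and 24.8 in replicates 2 and 3. Not10, a subunit of the CCR4-NOT deadenylase complex, had 39.5, with 16.7, 17.2 and 10.6 in replicates 1, 2 and 3. Of these 3 peaks, only that in InR was missing from a replicate list.

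The coding-exon peaks fell in 3099 of the 12363 protein-coding genes with eligible coding sequence (25.1%). A single peak was held by 2432 hosts (78.5%), 2 peaks by 525, 3 by 111 and 4 or more by 31, and 359 hosts had a peak found in all 3 lists. Hosts were longer than other genes, with a median coding length of 1932 bp against 1167 bp. The share of genes that were hosts rose from 7.12% of genes with up to 500 bp of eligible coding sequence to 62.6% of genes with over 8000 bp. Peaks per kb went the other way, from 0.289 to 0.0984, around an overall 0.212. Long genes thus held more peaks in number and fewer per length. An IDR summit within 500 bp of a TSS was present at 23.2% of hosts and 14.7% of eligible genes without a coding-exon peak, and hosts were above all genes in each of the 6 length classes (20.3% against 12.4% in the shortest class and 30.4% against 21.8% in the longest).

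**Figure D5:**
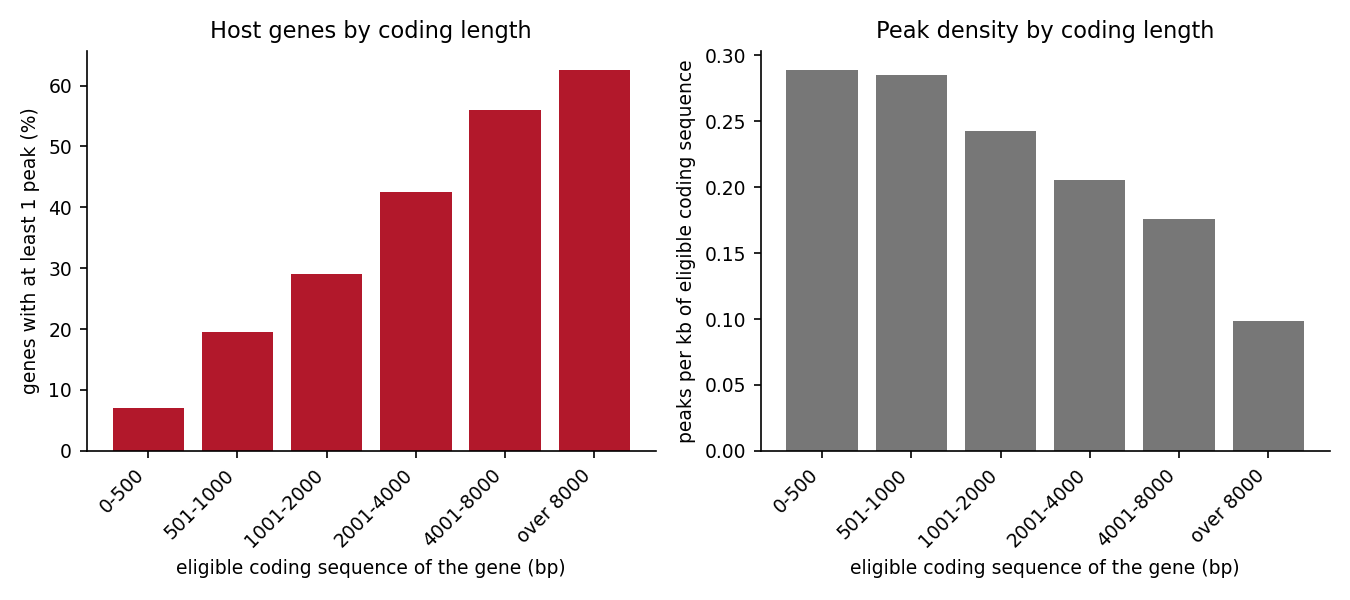
Left, share of protein-coding genes with at least 1 coding-exon peak (y axis, percent) by the length of the gene's eligible coding sequence (x axis, bp). Right, coding-exon peaks per kb of eligible coding sequence (y axis) in the same classes; the share of hosts rises from 7.12% to 62.6% while the density falls from 0.289 to 0.0984 per kb.

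The gene with the most coding-exon peaks was lola (longitudinals lacking), a BTB zinc-finger gene with many alternative 3' exons, which held 10 over 14.6 kb of coding sequence. Their pooled signals ran from 18.8 to 41.9 and their GC contents from 40.3% to 68.7%. Replicates 1, 2 and 3 held 5, 5 and 8 of them, and only 1 was in all 3 lists. The peaks with signals of 27.3 and 27.2 overlap each other and match the same replicate peaks, so these counts include that locus more than once. One of the 10 lay in coding sequence that lola shares with pre-lola-G in the annotation, and it is the only coding-exon peak in the CDS of more than 1 gene.

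The gene siz (schizo), a guanine nucleotide exchange factor of Arf proteins, had 8 peaks over 4272 bp of eligible sequence, or 1.87 per kb. Its signals ran from 18.4 to 27.95, replicates 1, 2 and 3 held 2, 6 and 4 of its peaks, and none was in all 3 lists. Some of its peaks overlapped each other, so they are not independent. Svil (supervillin, an actin-binding protein) had 6 peaks, all of them in the list of replicate 1 and 2 each in those of replicates 2 and 3. The peaks of these 3 genes therefore came from different replicates.

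Another 8 genes held 5 peaks each. Of these, CG31635, Asx (a Polycomb group protein of a histone deubiquitinase) and btsz (bitesize, of apical membrane organisation) had 2 peaks each in all 3 lists. The 2 such peaks of CG31635 overlap each other, as do the 2 of Asx, and they match the same replicate peaks, so each pair is 1 locus. Other peaks of btsz, with signals of 28.9 and 20.6, also overlap each other. In htk the peaks of 21.7, 21.0 and 18.5 form an overlapping chain with the same replicate 1 signal (8.98), so they are not separate loci. Both gukh (GUK-holder, a synaptic scaffold) and scrib had 1, while Msp300, CG7518 and htk (hat-trick, a chromatin protein) had none. The 5 peaks of Msp300, a giant nesprin linking nuclei to the cytoskeleton, were spread over 64782 bp of eligible coding sequence, 0.0772 per kb, and the list of replicate 3 held none of them. The 12th gene by the order used, in which summed signal broke the tie among hosts of 4 peaks, was osa, a subunit of the Brahma chromatin remodelling complex, with 4 peaks, 2 of them in all 3 lists, at signals from 21.0 to 36.4.

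The ETS genes themselves were hosts in 5 of 8 cases, with 7 peaks. Eip74EF, an ecdysone-induced ETS factor, had 2, of which the stronger (27.4) was in all 3 lists. Ets21C had 1 (24.7, in replicates 1 and 3), aop (the repressor anterior open) had 2 (23.4 for the stronger, in replicate 3), Ets96B had 1 (21.8, in replicate 1) and pnt (pointed, the activator of receptor tyrosine kinase signalling) had 1 (20.8, in replicates 2 and 3). Ets65A, Ets97D and Ets98B had none. Ets65A itself had 2263 bp of eligible coding sequence, a length at which most genes were not hosts. The ETS genes held 0.413 peaks per kb against 0.212 over all genes, from 7 peaks in all.

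Among developmental regulators, the share of hosts was above the 25.1% of all genes in each list, but these genes also differ in length, so the peaks per kb are given beside it. Of 16 glutamine-rich regulators, 13 were hosts (0.406 peaks per kb), led by lola, mam (mastermind, the Notch coactivator; 37.0, in all 3 lists) and pros (prospero; 36.1, in replicates 1 and 3). Of 8 Hox genes, 6 were hosts (0.569 per kb), with pb (proboscipedia; 36.1) in all 3 lists, Antp (23.0) in replicate 3 and lab (labial; 21.5) in replicate 2. Of 21 segmentation genes, 9 were hosts (0.435 per kb), with hry (hairy, the pair-rule repressor; 36.5) in all 3 lists at a GC content of 37.3%, wg (wingless; 32.7) in replicates 2 and 3 and en (engrailed; 32.7) in replicates 1 and 2. Over all coding-exon peaks, 10.2% were in all 3 lists. Of 20 Polycomb and trithorax genes, 10 were hosts with 26 peaks (0.289 per kb), 7 of them in all 3 lists, with the 2 of Asx at 1 locus. The strongest were in osa (36.4), Asx (33.7) and brm (the Brahma ATPase; 29.6).

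In signalling, 8 of 13 Notch genes (61.5%, 0.280 per kb) and 8 of 14 EGFR and Ras genes (57.1%, 0.403 per kb) were hosts. Over all genes these values were 25.1% and 0.212 per kb. By length, hosts made up 42.5% of genes with over 2000 and up to 4000 bp of eligible sequence. With over 4000 and up to 8000 bp the share was 56.0%. Beside mam, the strongest Notch peaks were in Su(H), the DNA-binding protein of the pathway (26.1, in replicate 1), and Ser, a Notch ligand (25.5, in replicates 1 and 2). In the EGFR list they were in Dsor1, the fly MEK (39.0, in replicates 1 and 2), vn, the ligand vein (35.6, in all 3 lists), and Sos, the Ras exchange factor (27.2, in replicates 1 and 2).

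Neuronal genes were taken as 3 lists. Of 14 pan-neuronal genes, 3 were hosts (21.4%, against 25.1% of all genes; 0.0607 per kb), namely unc-13 (a synaptic vesicle priming protein; 40.5, in replicates 2 and 3), elav (a neuronal RNA-binding protein; 29.8, in replicates 1 and 3) and Syx1A (syntaxin; 29.6, in all 3 lists). Of 18 ion channel genes, 7 were hosts (38.9%; 0.109 per kb), with no peak in all 3 lists and the strongest in Shab (31.3), eag (29.5) and Ih (27.1). Of 20 axon guidance genes, 10 were hosts (a share above that of all genes; 0.193 per kb, near the 0.206 of genes with over 2000 and up to 4000 bp), again with none in all 3 lists and the strongest in ena (29.9), Sema2a (29.1) and robo2 (27.4).

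Genes of the matrix and cytoskeleton gave a mixed picture. Over all genes 25.1% were hosts. The share was 56.0% of genes with over 4000 and up to 8000 bp of eligible sequence, and 62.6% of those with over 8000 bp. Of 20 genes of giant cytoskeletal and muscle proteins, 15 were hosts with 41 peaks, but over 301 kb of eligible sequence this was 0.136 per kb, below the 0.212 of all genes but above the 0.0984 of genes with over 8000 bp. Its strongest peaks were in Tm1 (tropomyosin; 42.5, in all 3 lists), zip (non-muscle myosin; 40.9, in replicates 1 and 2) and sls (the titin-like sallimus; 40.1, in all 3 lists). Of 19 cadherins and adhesion genes 14 were hosts (73.7%, 0.158 per kb), with Ten-m (33.1), crb (32.0) and CadN2 (30.1) the strongest. Of 14 basement membrane genes 8 were hosts (57.1%, 0.171 per kb). Col4a1 (a collagen IV chain, 36.7) was in all 3 lists, and Tig (30.1) and LanB2 (26.6) were in replicates 2 and 3. Of 20 apical matrix and cuticle genes 7 were hosts (0.0966 per kb), with pio (34.5), obst-A (27.9) and verm (27.5) the strongest and none in all 3 lists.

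Genes with up to 500 bp of eligible sequence, the length of many ribosomal protein genes, held 0.289 peaks per kb as a whole, and 7.12% of them were hosts. Over all genes the values were 0.212 per kb and 25.1%. Of 74 cytoplasmic ribosomal protein genes, 15 were hosts (20.3%), yet their 17 peaks over 25.3 kb made 0.672 per kb, the highest density of the 19 lists. RpS2 (43.4) was in all 3 lists, RpL18 (34.1) in replicates 1 and 3 and RpL6 (31.8) in replicates 2 and 3. Actin, tubulin and elongation factor genes came next with 7 of 16 hosts (0.597 per kb), namely eEF2 (44.6, in all 3 lists), alphaTub84B (33.8), betaTub56D (28.3) and 4 others. Near-identical copies exist among the actin and tubulin genes, so their reads may be shared. Of 12 glycolysis genes 5 were hosts (0.449 per kb), with Gapdh2 (38.2), Eno (26.8) and Pglym78 (20.9) the strongest. Of 16 heat shock and chaperone genes 3 were hosts (0.187 per kb), with Hsc70-4 (27.97) in all 3 lists, Hsp83 (22.5) in replicates 2 and 3 and Hsp27 (18.4) in none. Of 14 germ line and maternal RNA genes 6 were hosts (0.362 per kb), with pum (pumilio; 31.3), piwi (25.1) and tud (tudor; 22.5) the strongest. Expression was not measured in these samples.

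Within genes, coding-exon peaks sat in somewhat shorter exons than other coding positions, with a median coding exon of 702 bp against 824 bp, and 33.3% against 42.0% in exons of at least 1000 bp. They were more often in the last coding exon (30.3% against 25.5%) and in the first (11.9% against 9.10%) and less often in internal ones (49.5% against 57.2%). The summit was in the CDS of every protein-coding transcript that spans it for 84.7% of peaks and 83.8% of positions. A typical (median) peak lay 1621 bp from a TSS and 9257 bp from an IDR summit, where a typical coding position lay 1978 bp and 12697 bp away. Within 1000 bp of an IDR summit lay 4.93% of peaks and 2.72% of positions, so few were next to a strong peak. A total of 635 peaks (16.0%) lay within 1000 bp of another coding-exon peak.

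Density per chromosome arm was 238 per Mb of eligible coding sequence on 3L, 230.3 on 3R, 221 on 2R, 216 on 2L, 165 on the small chromosome 4 and 151 on X. The Y chromosome held none over 0.0576 Mb. The X chromosome was lowest of the arms with peaks although its coding sequence is the most GC-rich (median 54.7% at coding positions, against 51.7% to 52.7% on the large autosomal arms). Replicates 1, 2 and 3 held 48.0%, 52.6% and 45.4% of the X-linked peaks, compared with 61.1%, 50.3% and 43.7% of those on 3R. On chromosome 4, where coding positions have a median GC content of 39.8%, the 42 peaks were held at 31.0%, 57.1% and 52.4%. The excess in replicate 1 was thus seen on the large autosomal arms and not on X or 4. Males and females were pooled, so the X chromosome was present at a lower copy number than the autosomes, and the part of copy number was not tested.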

How the data were processed

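Per the deposited README files, the authors called peaks in each replicate against a control, on the pooled alignments of the 3 replicates, and derived an IDR-thresholded list from these. The authors' score for a peak (its signal value, of unstated scale) and its −log10 q are used as deposited. Of the aligner, the peak caller and the threshold on IDR, none is given in the sources used here. The lists hold no read counts, so depth is unknown. All positions are dm6, and the dm3 lists were not used.

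Summits were placed on Ensembl release 115 (BDGP6.54), and sequence came from the RefSeq copy of the same assembly. Eligible coding positions were laid every 200 bp over coding sequence that met the rule of position. GC content and motifs were taken within 100 bp of summits. Shares have 95% Wilson intervals that cover counting error over peaks only. Replicates were compared by exact two-sided sign-flip tests. The labels call the replicates biological, so they are the units of these tests. When all 3 differences have the same sign, the p is 0.25 whatever their spread. The calculations (Python 3.11.15, numpy 2.4.6, pandas 2.3.3, scipy 1.17.1) were tested on simulated data.

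The regions and the 19 gene lists were chosen with earlier results of these data known. Named genes are the 12 hosts with the most peaks (ties broken by summed signal), hosts of the 12 strongest peaks in all 3 lists, the ETS genes, up to 3 hosts per list by strongest peak, and hosts of the 5 peaks nearest each side of a threshold. Genes with a printed repeat are 3 of the strongest such hosts, and 1 further sequence is not reported here. Alternatives changed the overlap rule, promoter distance, GC window, q and rank limits and replicates used.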

Additional observations from a re-analysis of the deposited data

How the results depend on the processing

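Samples could not be paired between groups because they form 1 group. Classes of peaks were compared as pairs within each replicate. Of 61 alternatives, 47 kept direction, side of the test's threshold or, without a test, a size within the limits set for them. With 3 pairs the exact p cannot fall below 0.25, so no alternative could change the side of a test's threshold. Using the midpoint of a peak in place of its summit left every value unchanged. The count of 47 therefore includes outcomes that were fixed in advance. At a −log10 q of at least 2 only 19 coding-exon peaks in 18 hosts were left, found at a mean of 96.5%, and their share found then lay above that of intron and intergenic peaks by 3.83 points and of promoter peaks by 5.86 points (exact p = 0.75 for both), a reversal that rests on these few peaks. The mean share found was 38.2% when replicate summits had to lie within 100 bp and 24.7% in the 15000 strongest replicate peaks. GC content at the summits of the replicates' own coding-exon peaks was 56.1% in windows of 50 bp and 53.4% in windows of 200 bp to each side. With promoters of 1000 bp the coding share of the own lists was 11.6%, and with peaks in all 3 lists only the hosts were 359.

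Leaving out each replicate in turn gave a mean share found of 48.1% to 54.1%, differences of −13.6 to −3.58 points from intron and intergenic peaks and of −31.7 to −9.10 from promoter peaks, a GC content of 54.7% to 55.2%, which exceeded coding positions by 2.49 to 2.99 points and flanks by 8.08 to 8.58, and a coding share of 13.9% to 17.9%. The share found in every list used was 21.2% to 25.6% with 1 list left out, an alternative chosen after seeing the data. Unknown depth and the unstated signal scale limit every comparison between lists.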
